A study of Mus musculus with 70 samples.

Results

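The genes described here are 10 mouse genes of immune checkpoints and regulatory T cells, namely Pdcd1, Cd274, Pdcd1lg2, Ctla4, Lag3, Havcr2, Tigit, Foxp3, Il2ra and Icos. They were chosen by symbol, each was found on 1 line of every count table, and they are 10 of the 55487 named lines of a table. RNASeq was performed on cells flow-sorted into CD45+ immune cells and CD45- cells from B16F10 tumors, a melanoma line grown in both flanks of C57BL/6 mice of either sex aged 6 to 8 weeks. Histotripsy is a focused ultrasound treatment that breaks tissue apart mechanically without heat. Control tumors came from mice given sham ablation, histotripsy-treated tumors had most but not all of their volume ablated, and histotripsy-abscopal tumors were the untreated tumors on the opposite flank of ablated mice. All mice carried tumors on both flanks, no agent was added to any group, and every tumor grew from a single melanoma line. Tumors were taken 3 or 7 days after ablation. CD45+ cells gave 4 control, 6 histotripsy-treated and 7 histotripsy-abscopal libraries on day 3 and 10, 3 and 4 on day 7, and CD45- cells gave 4, 7 and 7 on day 3 and 11, 3 and 4 on day 7, or 70 libraries in all. The labels do not tie libraries to mice, so treated and abscopal libraries may come from the same animals. Nothing in the labels says that libraries of a group are from separate mice, and p-values measure the spread between libraries.

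Immune checkpoints are receptors on T cells and other lymphocytes that restrain their activation when they meet a ligand on a tumor cell or antigen-presenting cell. Pdcd1 encodes PD-1, which is bound by PD-L1 and PD-L2, the products of Cd274 and Pdcd1lg2, and Ctla4 encodes a receptor that competes with the activating receptor CD28 for its ligands. Regulatory T cells, which suppress other T cells, are defined by the transcription factor Foxp3 and carry much Il2ra (CD25), Ctla4 and Icos on their surface, although activated T cells of other kinds carry these as well. B16 melanoma is known as a poorly immunogenic tumor in which blockade of these receptors has been widely studied.

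On GRCm38, Pdcd1 lies on chromosome 1 from 94038305 to 94052553 (minus strand), Ctla4 from 60887000 to 60915832 and Icos from 60977927 to 61000320 on the same chromosome (plus strand). Cd274 (29367455 to 29388095) and Pdcd1lg2 (29410919 to 29471161) are neighbors on chromosome 19. The promoters of Pdcd1 and Ctla4, whose differences on day 3 had the lowest p-values of the 10 genes, and of Cd274, with higher p-values, are printed as the 250 bases before the RefSeq start on GRCm38.p6, 5′ to 3′ on the strand of the gene. They lie at chr1:94052554-94052803 (minus strand) for Pdcd1, chr1:60908775-60909024 (plus strand) for Ctla4 and chr19:29367188-29367437 (plus strand) for Cd274. Capitals mark GGAAA or its reverse complement TTTCC, the core bound by NFAT, a factor switched on by T cell receptor signaling.
Pdcd1: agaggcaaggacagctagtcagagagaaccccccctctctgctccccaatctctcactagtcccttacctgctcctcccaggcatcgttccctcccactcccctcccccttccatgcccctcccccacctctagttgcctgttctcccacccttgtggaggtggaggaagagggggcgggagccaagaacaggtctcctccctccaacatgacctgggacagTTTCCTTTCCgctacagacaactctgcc
Ctla4: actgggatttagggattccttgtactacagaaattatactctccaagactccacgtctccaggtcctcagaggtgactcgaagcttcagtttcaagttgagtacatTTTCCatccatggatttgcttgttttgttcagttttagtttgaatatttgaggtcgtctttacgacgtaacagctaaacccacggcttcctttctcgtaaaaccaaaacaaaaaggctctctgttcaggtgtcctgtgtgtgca
Cd274: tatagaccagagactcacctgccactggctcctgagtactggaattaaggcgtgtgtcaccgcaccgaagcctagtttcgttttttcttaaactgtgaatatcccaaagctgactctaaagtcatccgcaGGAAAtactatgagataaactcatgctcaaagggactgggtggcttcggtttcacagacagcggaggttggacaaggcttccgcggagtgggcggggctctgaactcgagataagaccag
The core was found on either strand in the 250 bases of 7 of the 8 genes with a RefSeq entry (all but Havcr2), and in 55.6% of the 32851 RefSeq promoters. Pdcd1 and Tigit held 2 matches each. TGANTCA, the AP-1 motif, was found only in Havcr2 (6.75% of all promoters) and TTCNNNGAA, a STAT motif, only in 1 of the 2 Foxp3 entries (7.02%). A match is a description of the sequence and not a site.

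Depth was 887798 to 3820705 counts per library, and values are given as counts per 1000000 after TMM scaling (CPM). QuantSeq counts the 3′ end of each transcript, so levels were not divided by gene length. In CD45+ libraries on day 3, the summed level of 13 T cell markers was 2556 to 3160 CPM in control, 853 to 2248 CPM in histotripsy-treated and 2289 to 2806 CPM in histotripsy-abscopal tumors, and that of 7 neutrophil markers was 337 to 2471, 1242 to 34976 and 782 to 2611 CPM. Histotripsy-treated replicate 3 held both the lowest T cell sum and the highest neutrophil sum. Histotripsy-abscopal replicates 1 and 4 stood apart in the summed melanoma markers, at 1180 and 2235 CPM where the other CD45+ libraries of day 3 lay between 91.9 and 384 CPM.

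Of the 10 genes, 9 passed the filter on low counts in CD45+ cells and 1, Cd274, in CD45- cells. Over the 34 CD45+ libraries the median level fell from 211 CPM for Icos through 130 for Ctla4, 93.4 for Cd274, 70.6 for Pdcd1, 47.4 for Havcr2, 41.6 for Il2ra, 27.8 for Pdcd1lg2, 7.88 for Foxp3 and 4.50 for Tigit to 1.40 for Lag3. The ranges over libraries of neighbors in this order overlapped throughout. Lag3, an inhibitory receptor that binds MHC class II, had 0 to 9 counts in a CD45+ library, 93 counts in all, and did not pass that filter. In the 36 CD45- libraries, Ctla4 had 0 counts, which allows up to 3 counts over all of them, and Pdcd1 and Tigit had 1 count each. Icos had 6, Il2ra 8, Foxp3 5, Lag3 3, Pdcd1lg2 10 and Havcr2 34 counts in all. Cd274 was counted in each of the 36 CD45- libraries, at 1.90 to 13.2 CPM (median 5.90), below its lowest CD45+ library at 48.6 CPM. Ptprc, which encodes CD45, had a median of 0 CPM in each CD45- group, and 12 of the 13 T cell markers had 3 counts or fewer in every CD45- library on both days. Cd3d, Cd3e, Cd2, Cd8a and Trbc1 were at 0 in every such library of day 3, and Cd3g in every one of day 7. Of 10 monocyte and macrophage markers, 5 on day 3 and 6 on day 7 had 3 counts or fewer in every CD45- library. Of 7 dendritic cell markers, 4 and 5 did. Whether immune cells add to the Cd274 counts of CD45- libraries was not tested.

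**Figure D1:**
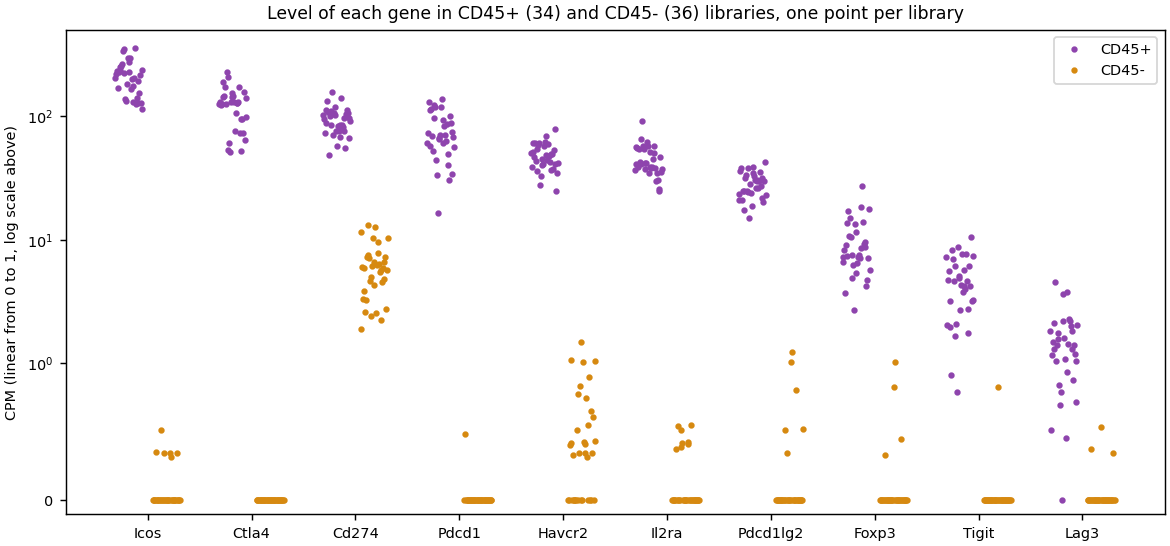
Level of each gene in CPM (linear from 0 to 1 and logarithmic above) in the 34 CD45+ and 36 CD45- libraries, with 1 point per library. Cd274 is the gene counted in every CD45- library, at 1.90 to 13.2 CPM, and the other 9 genes lie at or near 0 there.

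In CD45+ cells on day 3, histotripsy-treated tumors had the lowest mean level of Pdcd1, and histotripsy-abscopal tumors had the highest mean levels of Ctla4, Icos, Il2ra and Foxp3. None of these differences passed the threshold (edgeR's quasi-likelihood test, Benjamini-Hochberg adjusted p under 0.05 over 10264 genes). Between treated and control tumors 0 of the 9 tested genes were called, where 7.79% of all genes were, and 1 of the 9 had an unadjusted p under 0.05 against 23.9% of all genes. Between abscopal and control tumors 0 of 9 were called against 0.0% of all genes, with 1 of 9 at an unadjusted p under 0.05 against 7.76% of all genes. Between treated and abscopal tumors 0 of 9 were called against 5.44% of all genes, with 3 of 9 at an unadjusted p under 0.05 against 18.7%. DESeq2 called 0, 0 and 2 of them in these comparisons, the 2 being Ctla4 and Pdcd1, beside 10.4%, 0.117% and 7.01% of all genes. The median log2 fold change of the 9 genes was -0.25, 0.15 and -0.35, beside -0.01, 0.01 and -0.03 over all genes tested. The comparisons share libraries, so they are not independent of each other. Scaled by library totals alone, the median of all genes moved to -0.22 between treated and control tumors, and the 637 genes called higher and 163 called lower became 414 and 663.

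Pdcd1 stood at 61.3, 72.9, 132 and 112 CPM in the 4 control libraries of day 3. In the 6 histotripsy-treated libraries it ranged from 16.5 to 71.4 CPM (median 54.7), and in the 7 histotripsy-abscopal libraries from 52.3 to 123 CPM (median 97.7). Of the treated libraries 3 lay below every control and every abscopal library, and the groups overlapped. The mean was 49.7 ± 21.9 CPM (SD, n = 6) in treated against 94.5 ± 33.0 CPM (SD, n = 4) in control tumors, which differed by -0.93 on the log2 scale (standard error 0.32, 95% confidence interval -1.59 to -0.26, adjusted p = 0.0778, edgeR's quasi-likelihood test). Against abscopal tumors, at 90.8 ± 30.2 CPM (SD, n = 7), it was -0.87 (standard error 0.28, adjusted p = 0.0797, same edgeR test). Without treated replicate 3 these became -0.76 (adjusted p = 0.123, edgeR) and -0.70 (adjusted p = 0.176, edgeR). Pdcd1 passed the threshold against control when scaled by library totals alone and with no filter (adjusted p = 0.0410 and 3.06e-05, edgeR). It also passed against control with the replicate number as a block. Against abscopal tumors it passed with DESeq2 (adjusted p = 0.0477), with no filter (2.07e-05, edgeR) and without treated replicate 5 (0.0495, edgeR). With the summed level of Cd3d, Cd3e and Cd3g, which encode chains of the T cell receptor complex, as a covariate, its log2 fold change against control was 0.16 (adjusted p = 0.880, edgeR). The same covariate took the genes called against control from 800 to 21 and those against abscopal tumors from 558 to 1. In bulk libraries, fewer cells of a type and less RNA per cell cannot be told apart.

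Ctla4 ranged from 124 to 131 CPM in the 4 control libraries of day 3, from 137 to 335 counts each. Counting error alone can spread such counts more widely than this, so lying just outside this range says little. In histotripsy-treated libraries replicates 1, 2 and 3 stood at 53.6, 60.7 and 51.9 CPM and replicates 4, 5 and 6 at 132, 154 and 144 CPM, so 3 lay below and 3 above all of the controls. The same replicates 1, 2 and 3 had summed Cd3 levels of 227, 217 and 131 CPM, and replicates 4, 5 and 6 had 411, 350 and 297 CPM. Their neutrophil sums did not follow this order, at 2058, 8679 and 34976 CPM in the first 3 and 4527, 1242 and 4817 CPM in the rest. In the 7 abscopal libraries Ctla4 ranged from 127 to 229 CPM (median 172), above every control in 6 of 7. Treated tumors, at 99.4 ± 48.7 CPM (SD, n = 6), differed from abscopal tumors, at 174 ± 37.2 CPM (SD, n = 7), by a log2 fold change of -0.80 (standard error 0.24, 95% confidence interval -1.29 to -0.31), which just missed the threshold (adjusted p = 0.0508, edgeR). Its adjusted p ranged from 8.27e-05 with no filter to 0.853 with the Cd3 covariate over 23 alternatives. Without treated replicate 3 the log2 fold change was -0.67 (adjusted p = 0.130, edgeR), and it passed when any of treated replicates 4, 5 and 6 was left out (adjusted p = 0.0130 to 0.0355, edgeR), as it did without abscopal replicate 1 or 5 (adjusted p = 0.0498 and 0.0477, edgeR). Against control tumors the log2 fold changes were -0.34 for treated (adjusted p = 0.482, edgeR) and 0.46 for abscopal tumors (adjusted p = 0.690, edgeR).

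The ligands of PD-1 showed small differences on day 3. Cd274 stood at 103, 95.4, 72.8 and 88.1 CPM in control libraries, at 71.2 to 158 CPM (median 105) in treated and at 48.6 to 133 CPM (median 109) in abscopal libraries, and the groups overlapped. Of the treated libraries 3 lay above and 1 below all controls, and of the abscopal libraries 4 lay above and 1 below. The lowest Cd274 value belonged to abscopal replicate 4, the library with the highest melanoma sum. The log2 fold change was 0.23 in treated (95% confidence interval -0.25 to 0.72) and 0.15 in abscopal tumors (-0.32 to 0.63), both against control. Pdcd1lg2 stood at 21.0, 23.5, 36.4 and 38.4 CPM in control libraries, at 14.9 to 38.6 CPM in treated and at 17.3 to 33.3 CPM in abscopal libraries, and its log2 fold changes against control were -0.29 (-0.79 to 0.21) and -0.24 (-0.72 to 0.23). The antisense transcript AC119228.1 overlaps exons of Cd274 but not its 3′ end, and A930007I19Rik spans the 3′ end of Pdcd1lg2 without sharing exon sequence with it. Whether either adds reads to these genes was not tested.

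Havcr2 encodes TIM-3, an inhibitory receptor of T cells and myeloid cells, and Tigit an inhibitory receptor of T and NK cells. Havcr2 stood at 50.3, 38.8, 51.1 and 60.8 CPM in control libraries of day 3, at 27.7 to 57.6 CPM (median 40.5) in treated and at 36.2 to 61.3 CPM (median 54.3) in abscopal libraries. All but 2 of the treated libraries lay within the range of the controls. Its log2 fold change was -0.30 in treated against control (95% confidence interval -0.71 to 0.11, adjusted p = 0.374, edgeR) and -0.35 in treated against abscopal tumors (-0.70 to 0.01, adjusted p = 0.281, edgeR). Tigit had 1 to 17 counts in a CD45+ library. Its 95% confidence intervals ran from -1.35 to 0.86 in treated and from -0.95 to 0.97 in abscopal against control tumors. Differences within those bounds were not excluded. Lag3 was at 0 to 3.66 CPM in treated, 1.04 to 4.55 CPM in abscopal and 0.51 to 1.83 CPM in control libraries of day 3 and was not tested.

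Icos, an activating receptor of T cells, and the regulatory T cell genes had their highest means in abscopal tumors on day 3. Icos stood at 205, 220, 235 and 169 CPM in control libraries and at 230 to 350 CPM (median 256) in abscopal libraries, of which 6 of 7 lay above all controls. The log2 fold change was 0.42 (95% confidence interval -0.01 to 0.85, adjusted p = 0.646, edgeR). In treated libraries Icos ranged from 134 to 297 CPM, with 2 below and 2 above all controls, a log2 fold change of 0.01 (-0.42 to 0.45). Foxp3 stood at 7.32, 6.63, 8.22 and 3.73 CPM in control libraries, from 8 to 14 counts each, and at 7.40 to 17.1 CPM (median 10.7) in abscopal libraries, again with 6 of 7 above all controls. Its log2 fold change was 0.91 (95% confidence interval 0.18 to 1.63), which did not pass the adjustment (adjusted p = 0.570, edgeR), and it was 0.80 (adjusted p = 0.643, edgeR) without abscopal replicate 4. The treated libraries ran from 2.68 to 13.4 CPM and overlapped both groups. The 3′ end of Foxp3 lies within Ccdc22 on the opposite strand, so its low counts are uncertain. Il2ra stood at 36.6, 41.3, 56.4 and 56.0 CPM in control, 37.8 to 62.2 CPM in treated and 39.2 to 92.0 CPM in abscopal libraries, with log2 fold changes of 0.04 (-0.43 to 0.51) and 0.24 (-0.22 to 0.69) against control.

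**Figure D2:**
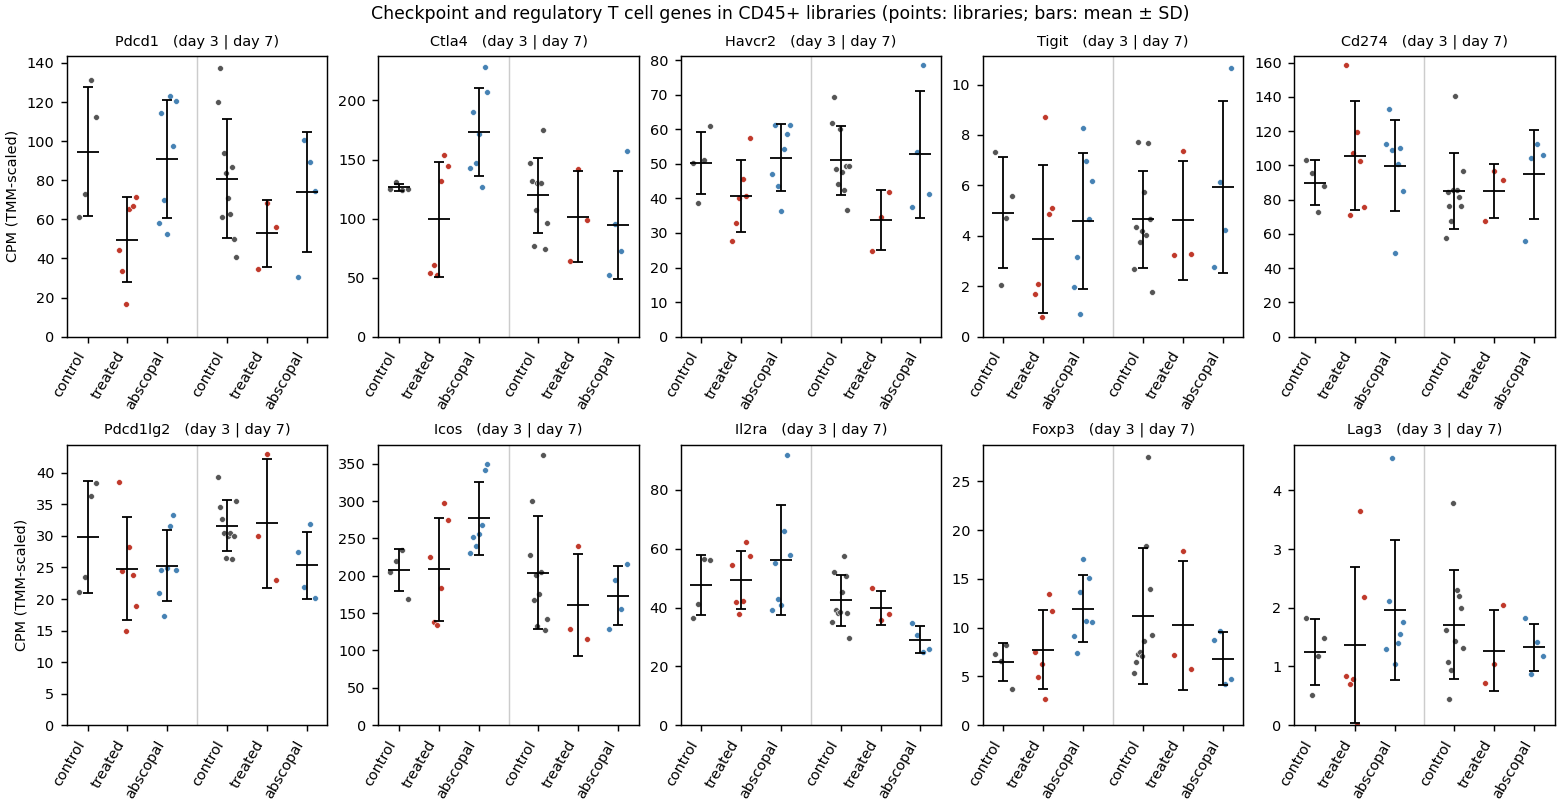
CPM of the 10 genes in each CD45+ library of day 3 and day 7, by group, with the mean ± SD as bars. On day 3 Ctla4 lies within 124 to 131 CPM in control tumors and splits into 3 treated libraries below and 3 above that range, and 3 treated libraries of Pdcd1 lie below all others of that day.

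Other genes of these pathways differed in both directions in treated tumors on day 3, where 7.79% of all genes were called against control and 5.44% against abscopal tumors. Of 16 other inhibitory receptors and ligands, 10 were tested, and against control 1 rose and 1 fell (median log2 fold change -0.06). Vsir, which encodes the inhibitory ligand VISTA of myeloid cells, rose from 167 ± 12.7 CPM (SD, n = 4) to 292 ± 91.6 CPM (SD, n = 6), or by 0.80 on the log2 scale (adjusted p = 0.0247, edgeR), and Cd96, a receptor of T and NK cells, fell by 0.71 on the log2 scale (adjusted p = 0.0386, edgeR). Of 15 costimulatory receptors and ligands, 14 were tested, 1 rose and 2 fell (median -0.20). Icosl, the ligand of ICOS, rose from 45.5 ± 11.8 to 95.5 ± 36.9 CPM (log2 fold change 1.08, adjusted p = 0.0214, edgeR). The lymphocyte receptors Cd226 and Cd27 fell without overlap of the groups, by 1.03 (adjusted p = 0.00165, edgeR) and 0.71 (adjusted p = 0.0213, edgeR) on the log2 scale. Of 16 other regulatory T cell genes, 12 were tested, 1 rose and 1 fell (median 0.17). Il10, an anti-inflammatory cytokine also made by myeloid cells, rose from 25.3 ± 3.25 to 60.8 ± 16.8 CPM (log2 fold change 1.27, adjusted p = 0.00908, edgeR), and Nrp1, which is also found on dendritic cells and vessels, fell by 0.70 (adjusted p = 0.00905, edgeR). Against abscopal tumors Vsir and Icosl rose and Cd96, Cd226 and Cd27 fell as well. Cd80, a ligand of both CD28 and CTLA-4, and Tnfrsf1b rose by log2 fold changes of 0.89 and 0.93 (adjusted p = 0.00681 and 0.0482, edgeR), and Cd28 and Ikzf2 fell by 0.56 and 0.64 (adjusted p = 0.0463 and 0.0332, edgeR). Of the 13 T cell markers 5 fell against control and 2 against abscopal tumors, among them Cd8a by 1.19 on the log2 scale against control (adjusted p = 0.0213, edgeR), and 5 neutrophil markers rose in each comparison. Their part in the differences of these lists was not tested. No gene of the 3 lists was called between abscopal and control tumors on day 3, where 0.0% of all genes were.

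On day 7, with 3 histotripsy-treated and 4 histotripsy-abscopal libraries, 0 of the 9 tested genes were called in CD45+ cells in any of the 3 comparisons, where 0.0% of the 10817 genes tested were (edgeR). At an unadjusted p under 0.05 there were 1 of 9 in treated against control, 1 of 9 in abscopal against control and 2 of 9 in treated against abscopal tumors, beside 3.15%, 7.45% and 2.69% of all genes. DESeq2 called 0 of them and 0.0% of all genes in each. The median log2 fold change of the 9 genes was -0.23, -0.23 and -0.12. Between abscopal and control tumors, the median was -1.17 over 4 B cell, -0.98 over 6 neutrophil and -0.22 over 13 T cell markers. It was 0.35 over 10 monocyte and macrophage, 0.35 over 7 dendritic cell and -0.01 over 8 NK cell markers. None of these markers was called, and their part in the levels of the 9 genes was not tested. Havcr2 stood at 24.7, 34.7 and 41.8 CPM in treated and at 36.6 to 69.3 CPM (median 49.1) in the 10 control libraries, with 2 of 3 treated libraries below all controls. The log2 fold change was -0.60 (95% confidence interval -1.05 to -0.15), and it did not pass the adjustment (adjusted p = 0.9999, edgeR). Against the 4 abscopal libraries, at 37.5 to 78.5 CPM, the log2 fold change of Havcr2 in treated tumors was -0.65 (-1.17 to -0.13, adjusted p = 0.9997, edgeR). Il2ra stood at 34.8, 30.7, 24.8 and 26.0 CPM in abscopal and at 29.8 to 57.5 CPM (median 38.8) in control libraries, a log2 fold change of -0.51 (-0.86 to -0.15, adjusted p = 0.542, edgeR). The 3 treated libraries, at 46.5, 35.7 and 37.7 CPM, all lay above the 4 abscopal libraries (log2 fold change 0.46, adjusted p = 0.9997, edgeR). The share of all genes that separate in this way was not counted.

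The lower mean of Pdcd1 in treated tumors was seen on day 7 as well, at 34.4, 68.3 and 56.1 CPM against 40.8 to 137 CPM (median 77.5) in control libraries, with 1 of the 3 treated libraries below all controls (log2 fold change -0.63, 95% confidence interval -1.32 to 0.05). Ctla4 stood at 64.4, 142 and 98.7 CPM in treated, at 52.2, 95.6, 72.8 and 157 CPM in abscopal and at 73.9 to 175 CPM (median 130) in control libraries. Icos stood at 128, 239 and 116 CPM in treated, at 129, 194, 155 and 216 CPM in abscopal and at 127 to 362 CPM (median 188) in control libraries. Foxp3 ranged from 5.38 to 27.5 CPM in control libraries, which covered the 3 treated libraries, and the abscopal libraries stood at 8.69, 9.64, 4.24 and 4.73 CPM. Cd274, Pdcd1lg2 and Tigit had log2 fold changes between -0.38 and 0.26 over the 3 comparisons of this day, and each confidence interval held 0.

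**Figure D3:**
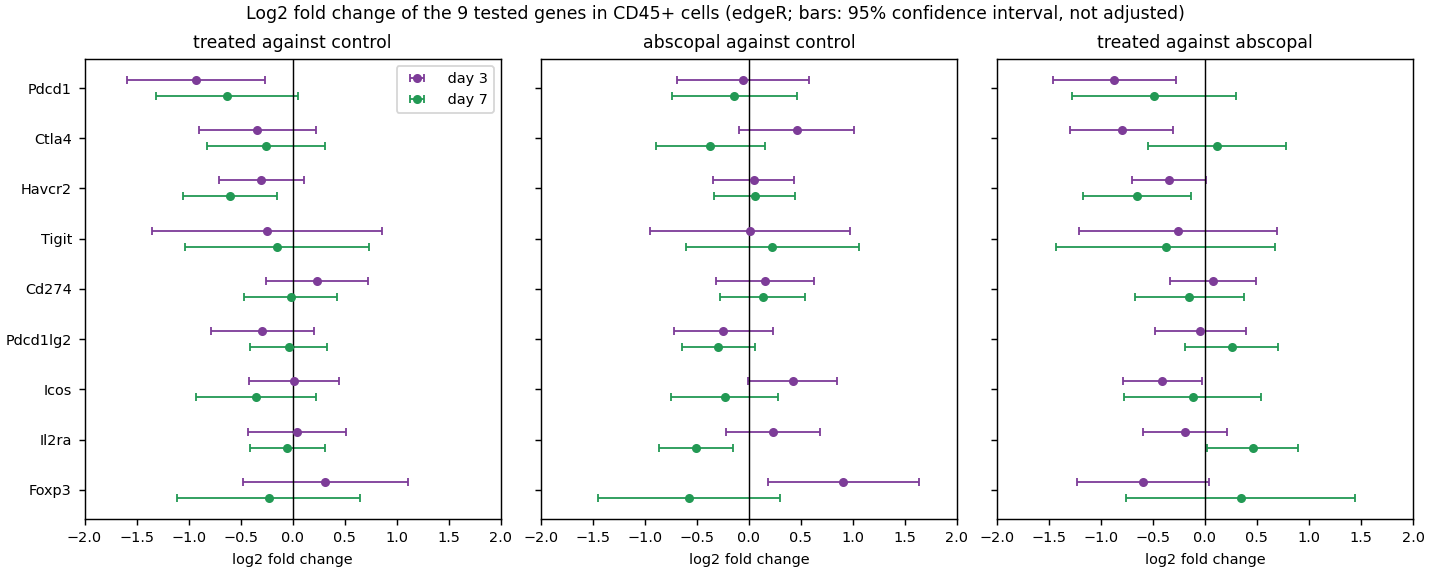
Log2 fold change of the 9 tested genes in CD45+ cells on day 3 and day 7 with unadjusted 95% confidence intervals from edgeR, for treated against control, abscopal against control and treated against abscopal tumors. On day 3 the intervals of Pdcd1 in both treated comparisons, of Ctla4 and Icos in treated against abscopal and of Foxp3 in abscopal against control tumors leave out 0, and no gene passed the threshold after adjustment.

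The change of each effect from day 3 to day 7 was tested as an interaction over the 34 CD45+ libraries. For treated against control tumors 0 of 9 genes were called against 2.68% of 11251 genes, and 0 of 9 had an unadjusted p under 0.05 against 15.8% of all genes. For abscopal against control tumors 0 of 9 were called against 0.0%, and 3 of 9 had an unadjusted p under 0.05 against 6.48% of all genes. DESeq2 called 0 of 9 in both, beside 3.98% and 0.00889% of all genes. These 3 were Foxp3, Il2ra and Ctla4, with differences of -1.48 (95% confidence interval -2.64 to -0.33), -0.73 (-1.31 to -0.16) and -0.81 (-1.60 to -0.03) on the log2 scale and adjusted p of 0.704, 0.706 and 0.760 (edgeR). Each had a positive log2 fold change in abscopal tumors on day 3 (0.91, 0.24 and 0.46) and a negative one on day 7 (-0.57, -0.51 and -0.37). With the replicate number as a block, 0 of 9 had an unadjusted p under 0.05, and the difference of Foxp3 was -0.73.

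Pdcd1 and Ctla4 followed the level of the Cd3 genes most closely of the 9 tested genes across libraries. Over the 34 CD45+ libraries, Pearson's r on the log2 scale with the summed Cd3 level was 0.92 for Pdcd1, 0.76 for Ctla4, 0.58 for Havcr2, 0.57 for Icos and 0.54 for Tigit, 0.29 for Pdcd1lg2, 0.23 for Il2ra, 0.05 for Cd274 and 0.03 for Foxp3. These values are a description over libraries that share groups and scaling. Among 7749 genes, those most like Pdcd1 in pattern were the T cell genes Cd8a (r = 0.93), Themis (0.91) and Cd8b1 (0.91), and those most like Ctla4 were Cd28 (0.88), Plcg1 (0.84) and Cd3e (0.82). Icos was most like Cd28 (0.81), Rora (0.81) and Tnfrsf4 (0.77). Cd274 was most like Sp140 (0.75), Rapgef2 (0.68) and Rsad2 (0.68), of which Sp140 and Rsad2 are known as interferon-induced genes. For Havcr2 these were Pdcd1, Zdhhc2 and Cblb (0.70 to 0.68), for Tigit Pnkd, Ech1 and Acaa2 (0.68 to 0.67), for Pdcd1lg2 Akap11, Eef1e1 and Cdca4 (0.68 to 0.67), for Foxp3 Nrip1, S1pr4 and L3mbtl3 (0.63 to 0.58) and for Il2ra Zfp472, Rrp1b and Rbm48 (0.64 to 0.62).

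**Figure D4:**
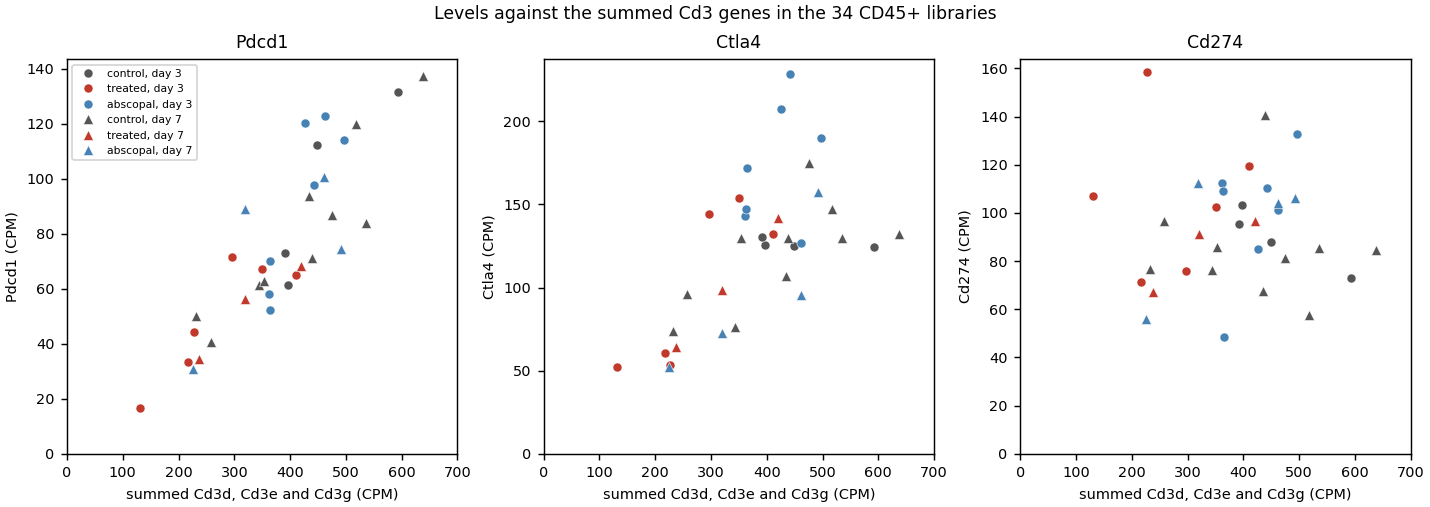
CPM of Pdcd1, Ctla4 and Cd274 against the summed CPM of Cd3d, Cd3e and Cd3g in the 34 CD45+ libraries, colored by group with circles for day 3 and triangles for day 7. Pdcd1 rises with the Cd3 sum over the range of 131 to 638 CPM, the 6 treated libraries of day 3 lie between 131 and 411 CPM, and Cd274 shows no such order.

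The genes were also set against the Cd3 genes, as counts per 100 summed counts of Cd3d, Cd3e and Cd3g, on day 3. The Cd3 sum itself stood at 131 to 411 CPM in treated libraries, below all controls in 5 of 6, and 39.2% of the 10264 genes tested had at least 5 of 6 treated libraries above all controls in this ratio. In abscopal tumors 2.56% had at least 6 of 7 above all controls. Pdcd1 stood at 15.4 to 25.0 in control, 12.7 to 24.1 in treated and 14.3 to 28.2 in abscopal libraries, and the groups overlapped, with medians of 20.4, 17.5 and 22.1. Ctla4 stood at 21.0 to 33.3 in control, 23.6 to 48.6 in treated and 27.4 to 51.7 in abscopal libraries, with 3 of 6 treated and 6 of 7 abscopal libraries above all controls. Icos stood at 37.7 to 56.1 in control, 44.8 to 102 in treated and 50.8 to 82.1 in abscopal libraries, with 5 of 6 treated and 6 of 7 abscopal libraries above all controls. Il2ra stood at 9.22 to 12.5 in control, 10.3 to 28.9 in treated and 10.8 to 20.8 in abscopal libraries, with 5 of 6 treated libraries above all controls. Foxp3 stood at 0.83 to 1.84 in control, 0.65 to 4.82 in treated and 1.49 to 4.69 in abscopal libraries, and 5 of 6 treated and 6 of 7 abscopal libraries lay above all controls. Cd274, which did not follow the Cd3 sum, stood at 12.3 to 26.0 in control, 25.6 to 81.9 in treated and 13.4 to 31.0 in abscopal libraries, likewise with 5 of 6 treated libraries above all controls. These ratios were not tested, and the Cd3 sum behind them was 166 to 1409 counts per library. On day 7 the ratios of the 3 groups overlapped for each of these genes, with Ctla4 at 20.7 to 37.2 in control, 27.2 to 33.8 in treated and 20.7 to 32.0 in abscopal libraries, and Icos at 24.7 to 76.2, 36.2 to 57.0 and 42.0 to 57.1.

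**Figure D5:**
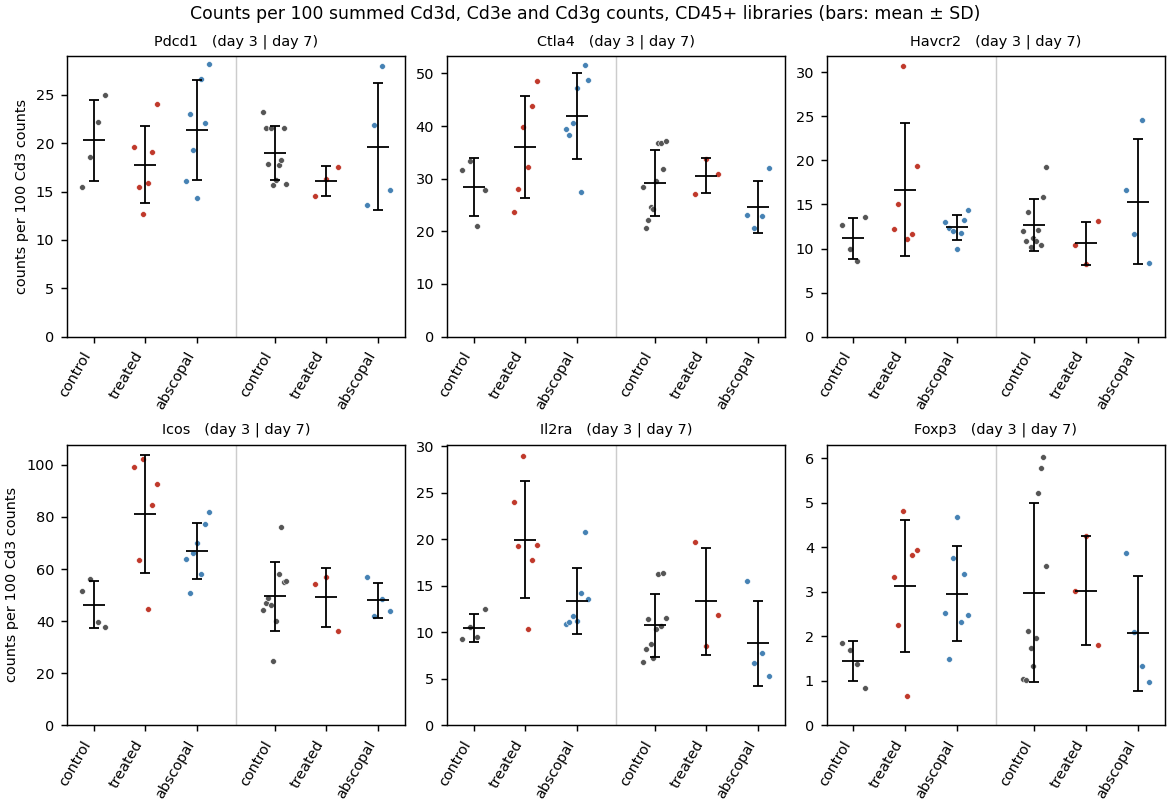
Counts per 100 summed counts of Cd3d, Cd3e and Cd3g for 6 of the genes in each CD45+ library of day 3 and day 7, with the mean ± SD as bars. On day 3 Pdcd1 overlaps among the 3 groups, and 5 of 6 treated libraries of Icos, Il2ra and Foxp3 lie above all control libraries, as they did for 39.2% of all genes tested at 5 or more of 6.

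In CD45- cells, Cd274 was the only gene of the 10 that passed the filter on low counts, with 3 to 30 counts per library. Its mean was 5.70 ± 4.28 CPM (SD) over the 4 control, 5.71 ± 2.52 over the 7 treated and 6.23 ± 3.62 over the 7 abscopal libraries on day 3, and 6.34 ± 2.99, 6.27 ± 3.87 and 6.15 ± 1.07 over the 11, 3 and 4 libraries on day 7. The 6 log2 fold changes lay between -0.07 and 0.03, and their 95% confidence intervals reached from -0.96 to 0.96. Differences within the interval of a comparison were not excluded. It was called in none of the 6 comparisons by edgeR or DESeq2, and none had an unadjusted p under 0.05. Such a p was found with edgeR in 10.6% of all genes in treated against control, 5.19% in abscopal against control and 13.5% in treated against abscopal tumors on day 3. On day 7 these shares were 6.08%, 9.56% and 6.74%. Of the 10921 genes tested on day 3, 0.0916% were called in treated against control, 0.0% in abscopal against control and 0.147% in treated against abscopal tumors, and of the 10996 genes of day 7, 0.0%, 0.291% and 0.0%. DESeq2 called 0.449%, 0.119% and 1.26% of all genes on day 3 and 0.0%, 0.1% and 0.0% on day 7.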

How the data were processed

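RNA of flow-sorted CD45+ and CD45- tumor cells was sequenced by the authors with QuantSeq, which reads the 3′ end of transcripts. The authors trimmed reads with Trim Galore 0.5.0, aligned them with STAR 2.6.0 to GRCm38, collapsed molecular identifiers and deposited raw counts per gene from featureCounts, whose strand setting is not given in the sources used here. A line without a gene name in the CD45+ tables, which holds the column totals, was left out. Groups came from the labels, and no column was left unmapped (0 columns not used).

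Counts were fitted per table over the 3 groups with edgeR 4.0.16 (R 4.3.3, TMM, filterByExpr with a count minimum of 10 and a total of 15, quasi-likelihood test, Benjamini-Hochberg adjustment, threshold 0.05), and over both CD45+ days for the interaction. The fits were tested on simulated data. Alternatives were DESeq2 1.42.0, library totals, no filter, only the 2 groups compared, the replicate number as a block, the log2 summed Cd3d, Cd3e and Cd3g level as a covariate in CD45+ cells, and each library left out in turn. Intervals and count limits cover 95% confidence of the fit and counting error respectively.

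The genes and lists were chosen with earlier results of these data known. All 10 genes are named, other list genes are named where called, at most 5 a direction in each list, and the 3 genes with the highest correlation to each tested gene are given, over tested genes that averaged 10 CPM or more and are not predicted or Rik gene models. Depth was 1039007 to 2824959 counts per library in CD45+ cells on day 3, 887798 to 2739931 on day 7, 1080212 to 3820705 in CD45- cells on day 3 and 1335518 to 3132646 on day 7, and the most alike libraries of a group differed by more than counting error, with a chi-square of at least 1.99 times its degrees of freedom. Groups share replicate numbers in the labels. Deviations of same-numbered libraries from their group means correlated above 0.1 in every pair only for treated and abscopal tumors in CD45+ cells on day 7 (3 pairs, correlation 0.11 to 0.42). Libraries with different numbers were not set beside them, so this cannot show whether the number pairs libraries. The main fits took the number as a name only.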

Additional observations from a re-analysis of the deposited data

Results flagged for a closer look

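Of 49 groups of 4 to 10 libraries that were checked, 3 held a library far from the others, and chance gives about 1 in 20. Cd274 in CD45+ cells on day 7 stood at 141 CPM (295 counts) in control replicate 6, where the other 9 control libraries lay between 57.6 and 96.8 CPM. It stood at 55.8 CPM (122 counts) in histotripsy-abscopal replicate 1 of that day, where the other 3 lay between 104 and 112 CPM. Ctla4 in CD45+ cells on day 3 stood at 131 CPM (256 counts) in control replicate 2, where the other 3 control libraries lay between 124 and 125 CPM. That gap is within the counting error of such counts, and it was flagged because the other libraries lay so close together.

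Of the genes that did not pass the filter on low counts, and counting only groups with more than 3 counts in all, 2 had a group mean above the highest control library. Havcr2 in CD45- cells on day 3 averaged 0.563 CPM in histotripsy-treated tumors (10 counts in all), with 0.414 CPM in the highest control library. Lag3 in CD45+ cells on day 3 averaged 1.96 CPM in histotripsy-abscopal tumors (25 counts in all), with 1.83 CPM in the highest control library. Neither was tested.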

How the results depend on the processing

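Calls of these genes changed in CD45+ cells on day 3 alone. Against control, treated tumors had 1 call (Pdcd1) with library totals, with no filter and with the replicate block. Of all genes, 1077 of 10264, 1244 of 30097 and 1252 of 10212 were called at these settings. Against abscopal tumors, they had 2 (Ctla4 and Pdcd1) with DESeq2 and with no filter, beside 719 of 10259 and 1022 of 30097 genes. They had 1 (Ctla4) with library totals and with the replicate block, beside 435 of 10264 and 495 of 10212 genes. They had 0 to 2 when a library was left out. Ctla4 was called there without abscopal replicate 1 or 5 or treated replicate 4 or 6, and both genes without treated replicate 5. Every other count of calls was 0 in each alternative. For treated against abscopal tumors in CD45+ cells on day 7, the replicate block gave 0 calls. Whether replicate numbers pair libraries was not settled in any comparison. In the day difference of abscopal against control tumors, the block left 0 rather than 3 of 9 genes at an unadjusted p under 0.05, and Foxp3 at -0.73 rather than -1.48. Among the single-gene values in the alternatives other than leaving out a library, 41 changed sign, 9 newly passed the threshold and 373 did neither. None of the values that changed sign passed the threshold, and the cause was not tested. With the Cd3 covariate the log2 values with a new sign were CD45+ day 3 abscopal-control Pdcd1 0.12, CD45+ day 3 treated-abscopal Pdcd1 0.039, Pdcd1lg2 0.28, Tigit 0.55 and Il2ra 0.15, CD45+ day 3 treated-control Pdcd1 0.16, Pdcd1lg2 0.095, Ctla4 0.30 and Tigit 0.75, CD45+ day 7 abscopal-control Pdcd1 0.080, CD45+ day 7 treated-control Cd274 0.047, Ctla4 0.028 and Tigit 0.11. With DESeq2 the log2 values with a new sign were CD45+ day 3 abscopal-control Tigit -0.025, CD45- day 7 treated-abscopal Cd274 0.0021. With library totals the log2 values with a new sign were CD45+ day 3 abscopal-control Havcr2 -0.047 and Tigit -0.079, CD45+ day 3 treated-abscopal Cd274 -0.033, CD45+ day 3 treated-control Il2ra -0.16 and Icos -0.18, CD45+ day difference abscopal-control Cd274 0.039 and Pdcd1lg2 0.014, CD45+ day difference treated-control Il2ra 0.12. With no filter the log2 values with a new sign were CD45+ day 3 abscopal-control Tigit -0.035, CD45+ day 3 treated-control Il2ra -0.034 and Icos -0.056. With the replicate block the log2 values with a new sign were CD45+ day 3 abscopal-control Havcr2 -0.10, Tigit -0.36 and Il2ra -0.035, CD45+ day 3 treated-control Il2ra -0.18 and Icos -0.22, CD45+ day 7 abscopal-control Havcr2 -0.13, CD45+ day 7 treated-control Cd274 0.28 and Foxp3 0.34, CD45+ day difference abscopal-control Cd274 0.17 and Havcr2 -0.016, CD45+ day difference treated-control Cd274 0.044, Foxp3 0.30 and Il2ra 0.17, CD45- day 3 abscopal-control Cd274 -0.36, CD45- day 7 treated-abscopal Cd274 0.0033. In CD45+ day 3, leaving out 1 library gave log2 values that spanned 0 for abscopal-control Havcr2 -0.064 to 0.16, Pdcd1 -0.21 to 0.14 and Tigit -0.26 to 0.19, treated-abscopal Cd274 -0.069 to 0.17 and Pdcd1lg2 -0.20 to 0.056, treated-control Icos -0.12 to 0.11 and Il2ra -0.056 to 0.13. In CD45+ day 7, leaving out 1 library gave log2 values that spanned 0 for abscopal-control Havcr2 -0.22 to 0.21, Pdcd1 -0.34 to 0.15 and Tigit -0.14 to 0.54, treated-abscopal Ctla4 -0.17 to 0.46, Foxp3 -0.11 to 0.66 and Icos -0.49 to 0.087, treated-control Cd274 -0.11 to 0.13, Foxp3 -0.70 to 0.074, Il2ra -0.19 to 0.013, Pdcd1lg2 -0.25 to 0.17 and Tigit -0.48 to 0.049. In CD45+ day difference, leaving out 1 library gave log2 values that spanned 0 for abscopal-control Cd274 -0.13 to 0.19, Havcr2 -0.27 to 0.17, Pdcd1 -0.28 to 0.22, Pdcd1lg2 -0.19 to 0.088 and Tigit -0.12 to 0.55, treated-control Ctla4 -0.18 to 0.37, Il2ra -0.19 to 0.032 and Tigit -0.20 to 0.52. In CD45- day 3, leaving out 1 library gave log2 values that spanned 0 for abscopal-control Cd274 -0.21 to 0.60, treated-abscopal Cd274 -0.27 to 0.12, treated-control Cd274 -0.28 to 0.53. In CD45- day 7, leaving out 1 library gave log2 values that spanned 0 for abscopal-control Cd274 -0.15 to 0.079, treated-abscopal Cd274 -0.56 to 0.38, treated-control Cd274 -0.62 to 0.33. Counts of Foxp3, Tigit and Lag3 were at most 33 per library, which limits what their levels can show.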
